A study of Mus musculus with 6 samples.

Results

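Fatty acid oxidation was followed through 33 genes, taken by symbol from the 22899 genes of the deposited tables. They code for the carnitine shuttle, the mitochondrial and peroxisomal oxidation enzymes, the electron carriers behind them and a few regulators. The RNA came from cells sorted as CD4+ T cells, the helper T lymphocytes, from the spleen of C57BL/6 mice by flow cytometry. Marker transcripts of macrophages, B cells and erythroid cells were also present in every library, as given below. Obese mice had received a high-fat diet with 60 kcal% fat and lean mice a normal diet. Feeding began at 6 to 8 weeks of age in general and lasted for up to 4 months. No sex was given, and no transgene or further treatment was named. Each group had 3 libraries, named here obese 1 to 3 and lean 1 to 3. Whether a library stands for its own mouse is not stated, and p-values cover only the spread from library to library.

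Fatty acids reach the mitochondrial matrix as carnitine esters. There each turn of beta-oxidation uses an acyl-CoA dehydrogenase, a hydratase, a 3-hydroxyacyl-CoA dehydrogenase and a thiolase to release acetyl-CoA. The electrons taken by the acyl-CoA dehydrogenases enter the respiratory chain through the electron transfer flavoprotein. Peroxisomes shorten very long and branched chains with their own enzymes and pass the products on. In T cells, quiescent, memory and regulatory cells are held to draw on this pathway more than rapidly dividing effector cells, which rely on glycolysis.

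Values were FPKM, fragments scaled by transcript length and library size, so levels can be compared between genes. Library totals were 595106 to 630744 FPKM in obese and 616104 to 656303 FPKM in lean libraries, and the sequencing depth behind a value is unknown. Each difference is the obese minus the lean mean of log2(FPKM + 1), a scale that understates the change of low genes. They were tested with limma on the 10788 genes that reached 1 FPKM in at least 3 libraries. A gene was called where its Benjamini-Hochberg adjusted p was under 0.05. The 9 T cell markers in the tables, Cd4 and Cd3e among them, summed to 2480 to 2963 FPKM in obese and 2770 to 3071 FPKM in lean libraries, and none was called. The 17 macrophage markers summed to 1877 to 2065 FPKM in obese and 798 to 878 FPKM in lean libraries. All 17 were called higher in obese, beside 5.77% of all genes tested. None of these 17 was at 0 in any library. In such bulk samples a different number of cells of a type and a different amount of RNA per cell cannot be told apart.

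None of the 30 fatty acid oxidation genes that could be tested passed the test in either direction. The other 3, Cpt1b, Ppara and Pdk4, were under the filter on low values. Over all genes, 6.28% were called, 5.77% higher and 0.519% lower in obese, a split of 622 against 56 genes. At an unadjusted p under 0.05, 5 members were higher in obese (Decr1, Acadl, Etfdh, Cpt1a and Crot), against a background of 21.9% of all genes, and 1 was lower (Hsd17b10), against 4.01%. Groups did not overlap for 11 members that were higher in obese and 1 that was lower, where the backgrounds were 25.4% and 6.15%. Out of 30 members, the 5 and both counts of 1 lay somewhat below these shares, and the 11 somewhat above. Counts of this size are near the background, and no test of the difference was made.

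The differences were small and mostly slightly above 0. Among the 30 tested members 27 lay above 0, yet 70.8% of all genes did so as well, and only 17 members lay above the median of all genes. The median difference of the members was 0.13, against 0.10 over all genes. The range ran from −0.22 for Hsd17b10 to 0.53 for Decr1. Scaling by median-of-ratios moved the median of all genes to −0.00 and quantile normalization moved it to −0.03, and the members above 0 then numbered 17 and 18. Read against the median of all genes, 17 members lay above it under median-of-ratios and 20 under quantile normalization. The calls over all genes became 441 higher and 129 lower under the first of these scalings and 322 higher and 112 lower under the second.

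The spread between libraries set the size of difference that could be seen. The unadjusted 95% interval of a member reached 0.15 to 0.44 to either side of its difference, with a median of 0.22. All 30 intervals lay within 1 of 0, and 26 lay within 0.5. The outermost bounds were −0.41 for Hsd17b10 and 0.87 for Decr1. Leaving out lean 1 brought 1 member past the test, Decr1, with a difference of 0.68 (limma, adjusted p = 0.0406). Leaving out lean 3 brought 3 past it: Cpt1a, with 0.59 (adjusted p = 0.0378), and Crot, with 0.46 (adjusted p = 0.0486), were higher in obese, and Hsd17b10, with −0.29 (adjusted p = 0.0487), was lower. No member was called without any 1 of the other 4 libraries.

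**Figure D1:**
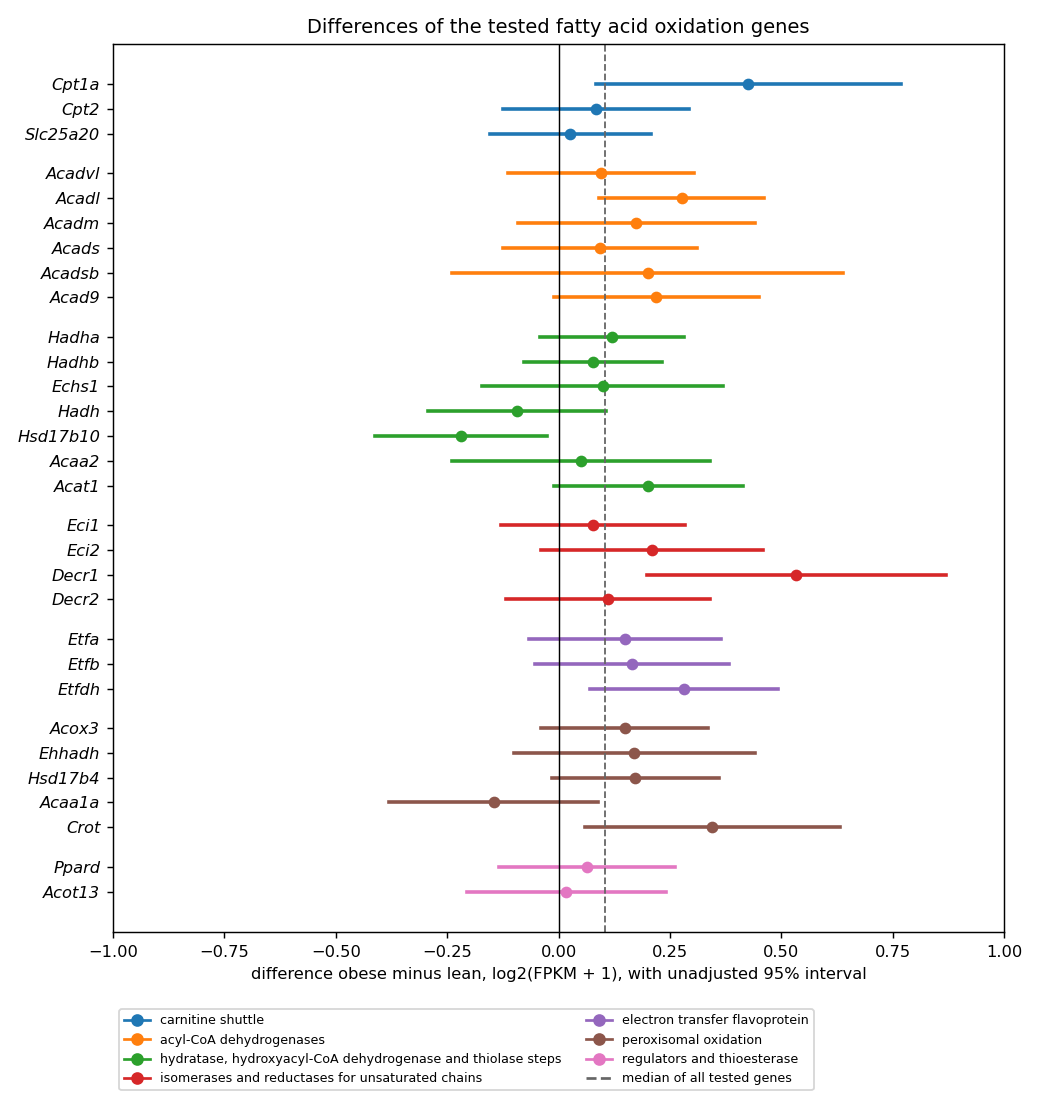
Difference in log2(FPKM + 1), obese minus lean (x axis), for each of the 30 tested fatty acid oxidation genes (y axis, coloured by step), with points for the limma estimate, bars for its unadjusted 95% interval and a dashed line at the median of all tested genes, 0.10. Most intervals cross 0, and the outermost estimates are 0.53 for Decr1 and −0.22 for Hsd17b10.

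In the carnitine shuttle, Cpt1a was the member with the clearest offset. It codes for carnitine palmitoyltransferase 1A of the outer mitochondrial membrane, the step that malonyl-CoA inhibits and that is held to limit entry into the pathway. The gene (Entrez 12894) lies on chr19:3322326-3385735 in GRCm38. Its 300-base window from RefSeq (GRCm38.p6, chr19:3323051-3323350, plus strand) is shown because this gene is the gate of the pathway. The promoter table gives 250 bases before a start and 50 from it, and for Cpt1a the start it uses lies inside the gene record above, downstream of its first base. Capitals mark TGACCT, which is the nuclear receptor core AGGTCA read on the other strand, and a CCAAT box.
Cpt1a: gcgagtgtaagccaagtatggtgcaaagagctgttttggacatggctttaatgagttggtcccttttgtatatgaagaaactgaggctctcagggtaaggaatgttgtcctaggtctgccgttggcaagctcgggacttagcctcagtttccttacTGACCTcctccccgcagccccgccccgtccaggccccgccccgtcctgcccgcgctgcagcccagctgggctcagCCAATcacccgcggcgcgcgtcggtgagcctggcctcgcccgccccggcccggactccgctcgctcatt

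Cpt1a stood at 35.1, 28.7 and 28.53 FPKM in obese libraries, against 18.6, 21.7 and 28.45 FPKM in lean libraries. The groups were parted only by the narrow gap between obese 3 and lean 3, and obese 1 and lean 1 were the extremes. The means were 30.8 ± 3.76 FPKM in obese and 22.9 ± 5.04 FPKM in lean libraries (SD, n = 3 each). The difference of 0.43 ± 0.15 (SE) did not pass the test (limma, adjusted p = 0.125). Cpt1b, the muscle form, was near the lower limit of measurement, at 1.01, 0.75 and 0.85 FPKM in obese and 0.64, 1.21 and 0.95 FPKM in lean libraries. Cpt1a made up 95.8% to 96.7% of the FPKM of the 3 Cpt1 genes in obese libraries and 94.0% to 96.2% in lean libraries, so it was the dominant form in all 6.

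The 2 later proteins of the shuttle were flat. Cpt2, which returns the acyl group to coenzyme A in the matrix, stood at 7.79 to 8.23 FPKM in obese and 7.15 to 7.88 FPKM in lean libraries, with a difference of 0.08 (limma, adjusted p = 0.586). Slc25a20, the carnitine-acylcarnitine translocase of the inner membrane, stood at 17.9 to 19.3 FPKM in obese and 17.6 to 19.0 FPKM in lean libraries (0.03, adjusted p = 0.858). The ratio of Cpt1a to Cpt2 within a library, which a factor common to all genes of that library cannot move, was 4.27, 3.61 and 3.66 in obese and 2.36, 3.03 and 3.82 in lean libraries. These ratios overlapped, with lean 3 above obese 2 and obese 3.

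Of the 6 acyl-CoA dehydrogenases, which carry out the first step of each turn, all had differences above 0 and none was called, although Acadvl and Acads lay below 0 under median-of-ratios scaling and Acads and Acadsb under quantile normalization. Their median was 0.19, and their summed level was 119.0 ± 2.78 FPKM in obese and 105.6 ± 4.96 FPKM in lean libraries (SD, n = 3 each). Acadl (Entrez 11363, chr1:66830839-66863309 in GRCm38), the long-chain enzyme, had the smallest p of the 6. It stood at 31.7, 30.4 and 34.5 FPKM in obese libraries, against 27.8, 25.2 and 26.2 FPKM in lean libraries. All 3 obese libraries were above all 3 lean ones. The means were 32.2 ± 2.11 FPKM in obese and 26.4 ± 1.31 FPKM in lean libraries (SD, n = 3 each), a difference of 0.28 ± 0.08 (SE; limma, adjusted p = 0.0827).

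The neighbours of Acadl in chain length were closer between groups. Acadvl, the very long-chain enzyme bound to the inner membrane, stood at 32.95 to 38.9 FPKM in obese and 30.7 to 35.8 FPKM in lean libraries (0.10, limma, adjusted p = 0.532). The ratio of Acadl to Acadvl was 0.816, 0.843 and 1.05 in obese and 0.778, 0.736 and 0.853 in lean libraries, and it overlapped through lean 3. Acadm, the medium-chain enzyme, stood at 16.1, 15.6 and 18.1 FPKM in obese and 15.02, 12.4 and 16.6 FPKM in lean libraries (0.17, adjusted p = 0.370). Acads, the short-chain enzyme, stood at 20.2 to 22.9 FPKM in obese and 18.1 to 21.95 FPKM in lean libraries, with a difference of 0.09. In all 3 of these genes the groups overlapped. Acad9, which also serves as an assembly factor of respiratory complex I, stood at 8.67, 8.72 and 9.31 FPKM in obese and 8.38, 7.03 and 7.16 FPKM in lean libraries without overlap (0.22, adjusted p = 0.210). Acadsb, which acts on short branched chains from isoleucine, was the lowest of the 6 at 3.24 to 4.39 FPKM in obese and 2.07 to 3.92 FPKM in lean libraries.

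Hadha and Hadhb code for the 2 subunits of the mitochondrial trifunctional protein, which joins the hydratase, hydroxyacyl-CoA dehydrogenase and thiolase activities for long chains. In GRCm38 they lie head to head on chromosome 5, Hadha at chr5:30119423-30154980 on the minus strand and Hadhb at chr5:30155253-30184593 on the plus strand, with 272 bases between their starts. The RefSeq window of Hadhb (GRCm38.p6, chr5:30155003-30155302, plus strand) is shown because most of it is this shared space. Capitals mark the 50 bases from the Hadhb start onwards. No AGGTCA, TCAAGGTCA, GCGCATGC or CCAAT was found in it on either strand.
Hadhb: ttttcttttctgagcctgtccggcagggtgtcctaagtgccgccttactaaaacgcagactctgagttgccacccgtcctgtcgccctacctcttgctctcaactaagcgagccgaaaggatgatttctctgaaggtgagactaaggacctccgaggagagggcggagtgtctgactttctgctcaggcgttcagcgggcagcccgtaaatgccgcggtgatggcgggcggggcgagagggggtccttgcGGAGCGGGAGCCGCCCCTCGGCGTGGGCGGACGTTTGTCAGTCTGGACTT

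Both subunits had slightly higher values in obese libraries, and neither was called, and the difference of Hadhb was below 0 under median-of-ratios scaling. Hadha stood at 40.2, 39.4 and 40.9 FPKM in obese and 38.6, 35.4 and 36.7 FPKM in lean libraries (0.12, limma, adjusted p = 0.309). Hadhb stood at 58.7, 57.1 and 54.8 FPKM in obese and 54.6, 52.2 and 54.6 FPKM in lean libraries (0.08, adjusted p = 0.492). The groups did not overlap in either gene. The ratio of Hadha to Hadhb was 0.707 ± 0.0345 in obese and 0.686 ± 0.0180 in lean libraries (SD, n = 3 each). By library it was 0.684, 0.690 and 0.747 in obese and 0.706, 0.678 and 0.672 in lean libraries, and the groups overlapped.

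The soluble matrix enzymes for shorter chains held the member with the largest difference below 0. Hsd17b10 (Entrez 15108, chrX:152001896-152004442 in GRCm38) codes for a hydroxyacyl-CoA dehydrogenase that is also a subunit of mitochondrial ribonuclease P. It was the most abundant of the 33 genes, at 68.9, 67.5 and 63.3 FPKM in obese libraries, against 82.6, 80.9 and 69.8 FPKM in lean libraries. All 3 obese libraries were below all 3 lean ones, with lean 3 nearest to the obese group. The means were 66.6 ± 2.95 FPKM in obese and 77.8 ± 6.93 FPKM in lean libraries (SD, n = 3 each), a difference of −0.22 ± 0.08 (SE; limma, adjusted p = 0.152).

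The other enzymes of this step stood on both sides of 0. Hadh, the classic short-chain hydroxyacyl-CoA dehydrogenase, stood at 31.8 to 34.3 FPKM in obese and 32.7 to 39.5 FPKM in lean libraries, with a difference of −0.09. Echs1, the short-chain hydratase, stood at 23.5 to 27.7 FPKM in obese and 20.03 to 27.2 FPKM in lean libraries (0.10). Acaa2, the mitochondrial thiolase, stood at 38.1 to 43.0 FPKM in obese and 32.0 to 45.0 FPKM in lean libraries (0.05). All 3 overlapped widely, and lean 3 was the lowest lean library in each. Acat1, the acetoacetyl-CoA thiolase, did not overlap, at 20.7, 19.1 and 19.8 FPKM in obese and 18.7, 17.4 and 15.4 FPKM in lean libraries (0.20, limma, adjusted p = 0.210). Summed over all 7 genes of the later steps, trifunctional protein included, the level was 283.6 ± 10.1 FPKM in obese and 285.5 ± 22.1 FPKM in lean libraries (SD, n = 3 each).

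Unsaturated chains need an isomerase or a reductase before they can re-enter the cycle, and this group held the largest difference of all members. Decr1 (Entrez 67460, chr4:15917240-15945377 in GRCm38) codes for the mitochondrial 2,4-dienoyl-CoA reductase. It stood at 5.57, 6.27 and 6.58 FPKM in obese libraries, against 5.05, 3.71 and 3.19 FPKM in lean libraries. The groups did not overlap, although lean 1 came close to obese 1. The means were 6.14 ± 0.517 FPKM in obese and 3.98 ± 0.960 FPKM in lean libraries (SD, n = 3 each), a difference of 0.53 ± 0.15 (SE). It missed the threshold with the smallest adjusted p of all members (limma, adjusted p = 0.0695).

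The 3 related enzymes had smaller offsets. Decr2, the peroxisomal reductase, stood at 8.96 to 10.02 FPKM in obese and 8.07 to 9.65 FPKM in lean libraries (0.11). Eci1, the mitochondrial enoyl-CoA isomerase, stood at 27.6, 33.4 and 29.7 FPKM in obese and 28.8, 29.8 and 27.0 FPKM in lean libraries (0.08). Eci2, an isomerase found in mitochondria and peroxisomes, stood at 29.7, 27.8 and 30.6 FPKM in obese and 28.5, 26.3 and 21.4 FPKM in lean libraries (0.21, limma, adjusted p = 0.261). None of the 3 separated the groups.

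The electron transfer flavoprotein is made of the products of Etfa and Etfb and hands its electrons to the enzyme coded by Etfdh, which passes them to ubiquinone. Etfdh (Entrez 66841, chr3:79603788-79628767 in GRCm38, minus strand) had the largest offset of the 3. Its RefSeq window (GRCm38.p6, chr3:79628718-79629017, minus strand) is shown as a member promoter with the NRF1 core GCGCATGC, here in a palindromic form that reads as GCGCATGC on both strands. Capitals mark that stretch and a CCAAT box.
Etfdh: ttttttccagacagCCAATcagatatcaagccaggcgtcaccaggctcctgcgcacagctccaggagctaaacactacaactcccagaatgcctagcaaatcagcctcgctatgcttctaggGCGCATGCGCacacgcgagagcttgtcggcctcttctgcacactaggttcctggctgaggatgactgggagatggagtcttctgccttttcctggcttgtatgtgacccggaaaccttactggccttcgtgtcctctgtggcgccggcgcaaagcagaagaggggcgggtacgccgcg

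Etfdh stood at 11.6, 11.7 and 13.2 FPKM in obese libraries, against 10.2, 9.40 and 9.88 FPKM in lean libraries, without overlap. The means were 12.2 ± 0.905 FPKM in obese and 9.81 ± 0.384 FPKM in lean libraries (SD, n = 3 each), a difference of 0.28 ± 0.09 (SE; limma, adjusted p = 0.105). Its exons overlap those of 4930579G24Rik on the opposite strand by 278 bases, and the strandedness of the counting is not given, so reads there cannot be told apart. The same holds for shared exon bases of Acadvl with Dvl2, Echs1 with Paox and Hadha with Garem2 on opposite strands, and of Etfb with Gm45233 and Cpt1b with Gm44502 on the same strand. Etfa stood at 26.1, 23.0 and 27.5 FPKM in obese and 23.5, 21.1 and 24.2 FPKM in lean libraries (0.15, adjusted p = 0.346). Etfb stood at 56.3, 52.6 and 52.9 FPKM in obese and 52.9, 50.01 and 41.8 FPKM in lean libraries (0.16). The 2 subunits overlapped between groups, and their ratio, Etfa over Etfb, was 0.474 ± 0.0426 in obese and 0.482 ± 0.0851 in lean libraries (SD, n = 3 each).

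Among the 5 peroxisomal members the offsets went both ways. Crot (Entrez 74114, chr5:8966033-8997146 in GRCm38) codes for carnitine octanoyltransferase, which readies shortened chains for export from the peroxisome. It stood at 11.3, 11.5 and 12.01 FPKM in obese libraries, against 8.94, 7.39 and 10.6 FPKM in lean libraries. The obese libraries were close together and all above the lean ones, which were more spread. The means were 11.6 ± 0.386 FPKM in obese and 8.99 ± 1.63 FPKM in lean libraries (SD, n = 3 each), a difference of 0.34 ± 0.13 (SE; limma, adjusted p = 0.134).

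A pair of oxidation enzymes of the peroxisome also separated the groups without being called. Acox3, the oxidase for branched chains, stood at 17.7, 16.6 and 17.8 FPKM in obese and 15.1, 16.5 and 15.2 FPKM in lean libraries (0.15, limma, adjusted p = 0.282). Hsd17b4, the D-bifunctional protein, stood at 22.9, 21.3 and 20.3 FPKM in obese and 19.5, 19.3 and 18.1 FPKM in lean libraries (0.17, adjusted p = 0.224). Ehhadh, the L-bifunctional protein, was low and overlapped, at 3.91 to 4.56 FPKM in obese and 3.11 to 4.09 FPKM in lean libraries, and it made up 16.4% ± 0.233 of the FPKM of both bifunctional proteins in obese and 16.1% ± 1.36 in lean libraries (SD, n = 3 each). The thiolase gene Acaa1a had a difference of −0.15, at 35.5, 34.5 and 32.4 FPKM in obese and 40.2, 41.6 and 32.4 FPKM in lean libraries, where lean 3 stood with the obese group. Acaa1a has a close paralogue, Acaa1b, and its exons overlap those of Myd88 on the opposite strand, so its value is uncertain.

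The regulators and the thioesterase did not separate the groups. Ppara, the fatty acid receptor that drives these genes in liver, was at 0 in 2 of 3 obese and 1 of 3 lean libraries and reached at most 0.02 FPKM in obese and 0.01 FPKM in lean libraries. Pdk4, a kinase that blocks pyruvate dehydrogenase and a known target of such receptors, was at 0.03, 0 and 0.02 FPKM in obese and listed at 0 in all 3 lean libraries. Both were thus at or near 0 in every library, and no fold is given. Ppard, the related receptor, was expressed at 11.99, 12.99 and 12.06 FPKM in obese and 11.6, 11.3 and 12.4 FPKM in lean libraries (0.06, limma, adjusted p = 0.673). Acot13, a thioesterase that frees fatty acids from coenzyme A, stood at 27.5 to 31.9 FPKM in obese and 27.0 to 33.04 FPKM in lean libraries (0.02, adjusted p = 0.925).

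**Figure D2:**
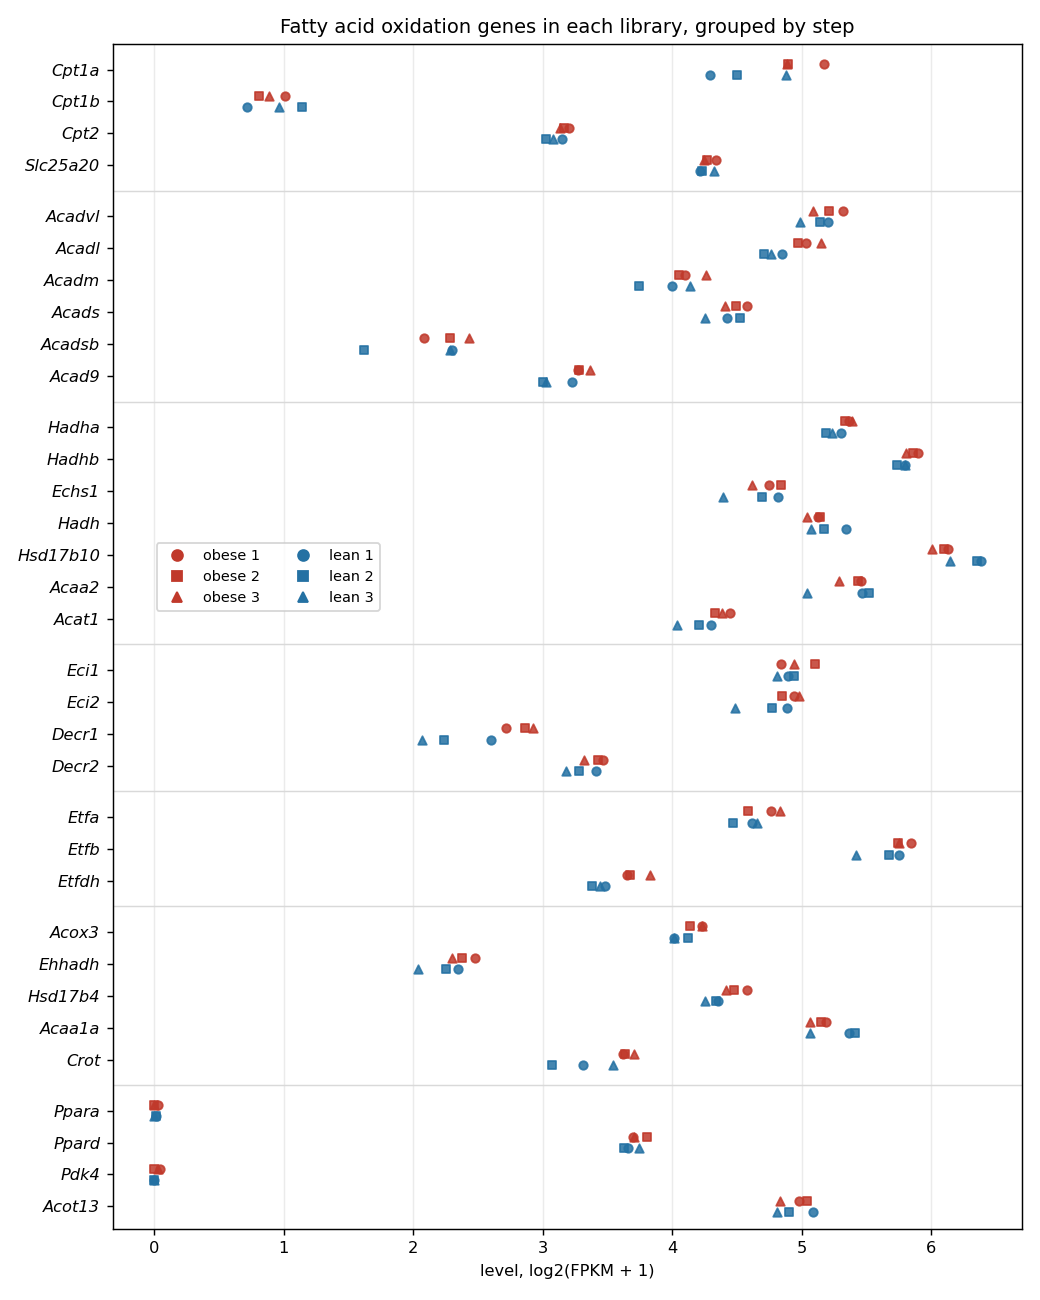
Level of each of the 33 genes on the log2(FPKM + 1) scale (x axis) in every library (obese red and upper, lean blue and lower within a gene; circle, square and triangle for replicates 1, 2 and 3), grouped by step (y axis). Levels differ far more between genes than between groups, from Ppara and Pdk4 at or near 0 to Hsd17b10 at 66.6 FPKM in obese and 77.8 FPKM in lean libraries.

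Summed over the 33 genes, the level was 778, 757 and 742 FPKM in obese libraries, against 752, 719 and 674 FPKM in lean libraries. These sums overlapped between obese 3 and lean 1. As a share of the summed FPKM of the library, the members took 0.123%, 0.124% and 0.125% in obese and 0.116%, 0.110% and 0.109% in lean libraries, without overlap. Globin transcripts, which enter the same total, took 0.702% to 4.56% of it in obese and 0.0258% to 0.0710% in lean libraries, and their part in the members' values was not tested. With 16 erythroid and immunoglobulin genes left out of the total, 2 members were called higher in obese, Acadl with 0.38 (limma, adjusted p = 0.0448) and Decr1 with 0.62 (adjusted p = 0.0421), and the median of all genes moved to 0.20. Of these 16 genes, 13 were erythroid markers, so few immunoglobulin genes were left out.

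Single libraries weighed on the pattern. Lean 3 held the lowest value for 14 of the 30 tested members, 46.7%, whereas it held the lowest value for 23.7% of all genes. Lean 2 held it for 11 members, 36.7%, beside 37.5% of all genes. Obese 1 held the highest value for 11 members, 36.7%, beside 12.02% of all genes, and obese 3 for 11 members, beside 39.4% of all genes. The members thus sat high in obese 1 and low in lean 3 more often than other genes, and no test of this was made.

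Outside the 33, a further 116 genes of fatty acid metabolism were listed, of which 96 could be tested. Of these, 9 rose in obese libraries and none fell, and their median difference was 0.12. Calls among the 96 are to be read against the 5.77% of all genes called higher. The 9 were receptors, lipid-binding and uptake proteins, a lipase, a synthetase and thioesterases. None was an enzyme of the oxidation cycle.

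Among 19 tested regulators 2 were called higher, both of them receptors, beside 5.77% of all genes tested. Pparg, the receptor of lipid storage that also acts in macrophages and regulatory T cells, rose to 4.81, 4.80 and 5.60 FPKM in obese libraries, against 2.46, 1.29 and 1.99 FPKM in lean libraries (1.08 ± 0.16 SE, limma, adjusted p = 0.00569). Rxra, the partner with which the PPAR receptors bind DNA, rose to 13.0, 12.4 and 11.5 FPKM in obese libraries, against 8.16, 7.57 and 8.38 FPKM in lean libraries (0.55 ± 0.09 SE, adjusted p = 0.0115). Both separated the groups clearly. Rxra lost its call under quantile normalization (adjusted p = 0.0706) and without obese 1 (adjusted p = 0.0511). The other 17 tested regulators were not called. Ppargc1a, the coactivator of mitochondrial genes, was at 0.04 to 0.10 FPKM over all 6 libraries.

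Among the 10 tested PPAR target genes outside the oxidation pathway, 4 rose, and the median of the list was 0.31. Cd36, a scavenger receptor that takes up fatty acids, stood at 12.5, 5.94 and 14.6 FPKM in obese libraries, against 1.98, 2.02 and 2.27 FPKM in lean libraries (1.88 ± 0.26 SE, limma, adjusted p = 0.00448). Fabp4, a fatty acid carrier of adipocytes and macrophages, stood at 10.3, 5.52 and 9.02 FPKM in obese libraries, against 1.80, 1.76 and 1.57 FPKM in lean libraries (1.74 ± 0.19 SE, adjusted p = 0.00130). Obese 2 was the lowest obese library for both and still above every lean one. Mgll, the monoacylglycerol lipase, stood at 2.38, 1.49 and 4.56 FPKM in obese and 0.73, 0.53 and 0.69 FPKM in lean libraries (1.13 ± 0.25 SE, adjusted p = 0.0362). Fabp5, a fatty acid carrier with wider expression, stood at 18.3, 14.5 and 18.6 FPKM in obese and 12.01, 10.1 and 11.3 FPKM in lean libraries (0.57 ± 0.12 SE, adjusted p = 0.0243). Fabp5 lost its call without obese 1, obese 3, lean 1 or lean 2 (adjusted p up to 0.0878), and Mgll lost it without any 1 of the lean libraries (up to 0.121). Both also lost it under quantile normalization (adjusted p = 0.0675 for Fabp5 and 0.0731 for Mgll) and with no filter on low values (0.0632 and 0.0976). Cd36, Fabp4 and Pparg were called under every alternative run. Acot1 was called wherever it could be tested, but Acot1 and Mgll did not pass the filter with any 1 obese library left out, or with 1 FPKM required in all 6 libraries.

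A synthetase, 1 of 11 tested genes for the activation of fatty acids and its control, and 2 thioesterases, among 32 tested enzymes and transporters, completed the set. Of all genes tested, 5.77% were called higher. Acot1, a cytosolic thioesterase induced by fatty acids in liver and heart, stood at 3.27, 2.14 and 2.90 FPKM in obese and 0.83, 0.76 and 0.19 FPKM in lean libraries (1.26 ± 0.19 SE, limma, adjusted p = 0.00666). It is nearly identical to Acot2, so its value is uncertain. Acsl1, which activates long chains with coenzyme A, stood at 7.23, 6.08 and 10.2 FPKM in obese and 4.69, 3.88 and 4.69 FPKM in lean libraries (0.68 ± 0.17 SE, adjusted p = 0.0498). Acot9, a mitochondrial thioesterase, stood at 18.2, 16.2 and 18.6 FPKM in obese and 14.6, 11.5 and 11.8 FPKM in lean libraries (0.46 ± 0.11 SE, adjusted p = 0.0467). These last calls were the weakest of the 9: each was lost without any 1 of 5 of the 6 libraries, where obese 2 was the exception for Acsl1 and lean 1 for Acot9, and under median-of-ratios scaling (adjusted p = 0.0665 for Acsl1 and 0.0932 for Acot9). Both were also lost with no filter on low values, with 1 FPKM required in all 6 libraries, under quantile normalization and with no intensity trend. Library weights cost Acot9 its call as well.

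**Figure D3:**
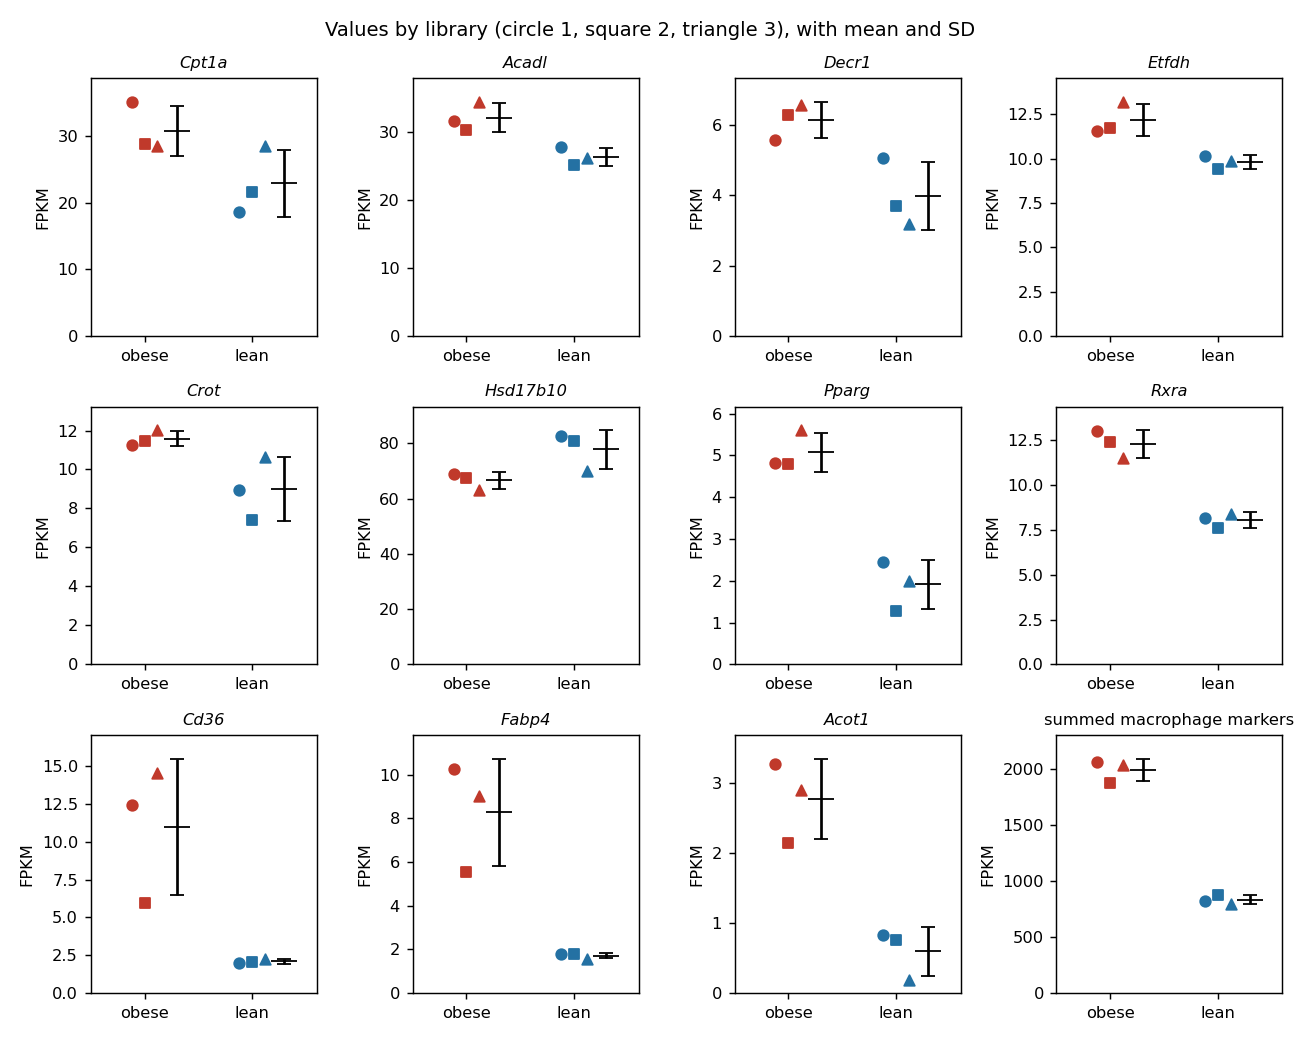
FPKM in each library (y axis, from 0) for 6 members of the pathway, 5 of the genes called around it and the summed macrophage markers, with obese (red) left of lean (blue), markers for replicates 1 to 3, and the mean with SD as black bars. None of the 6 members was called, although their groups do not overlap, and the gap is narrowest for Cpt1a; Pparg, Rxra, Cd36, Fabp4 and Acot1 were called.

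The remaining lists held no call. Of the 2 tested ketone body enzymes, Bdh1, which converts acetoacetate to 3-hydroxybutyrate, stood at 13.3, 13.8 and 12.4 FPKM in obese and 16.3, 15.2 and 16.2 FPKM in lean libraries (−0.25, limma, adjusted p = 0.112). Oxct1, which returns acetoacetate to its coenzyme A ester, stood at 22.9 to 24.6 FPKM in obese and 20.2 to 26.7 FPKM in lean libraries (0.05, adjusted p = 0.777). Of the 6 pyruvate dehydrogenase kinases and phosphatases, Pdk1 stood at 38.9, 32.9 and 23.3 FPKM in obese and 28.9, 25.3 and 23.7 FPKM in lean libraries (0.25, adjusted p = 0.368), and Pdk3 had 0.09 (adjusted p = 0.529). Among the 16 peroxisome biogenesis genes, Pex2, a membrane ubiquitin ligase, had 0.46 (adjusted p = 0.0703) and Cat, catalase, had 0.27 (adjusted p = 0.0813). Both separated the groups: Pex2 stood at 10.3 to 12.6 FPKM in obese and 7.01 to 9.48 FPKM in lean libraries, and Cat at 53.5 to 62.3 FPKM in obese and 47.1 to 49.6 FPKM in lean libraries.

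**Figure D4:**
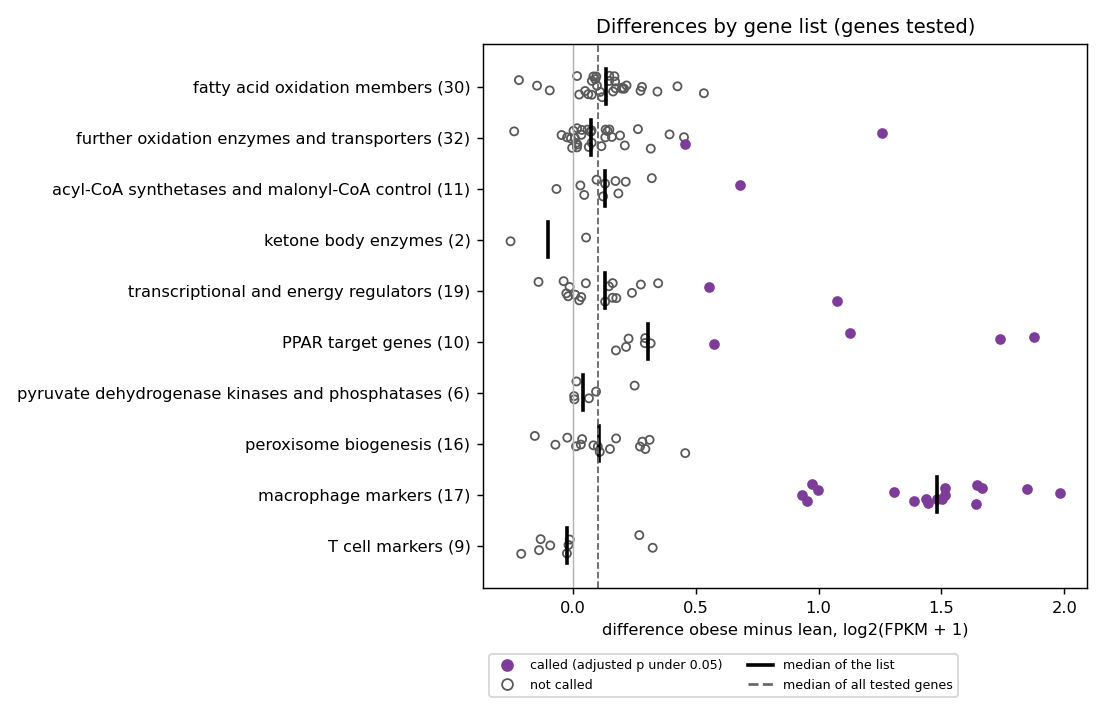
Difference in log2(FPKM + 1), obese minus lean (x axis), of each tested gene, by list (y axis, number tested in brackets), with filled points for called genes, a bar at each list's median and a dashed line at the median of all genes. The 30 members hold no filled point and a median of 0.13, the 10 PPAR targets hold 4 and the 17 macrophage markers are all filled with a median of 1.48.

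Markers of other cells moved along with the groups. Over all genes, 5.77% were called higher and 0.519% lower in obese. Beside the 17 macrophage markers, 10 of 11 tested erythroid markers were called higher in obese, with sums of 4366 to 29046 FPKM in obese and 183 to 482 FPKM in lean libraries. Of 13 neutrophil markers 7 were called lower, with sums of 166 to 469 FPKM in obese and 611 to 892 FPKM in lean libraries, and of 10 NK cell markers 3 were called lower, with sums of 220 to 300 FPKM in obese and 302 to 395 FPKM in lean libraries. The neutrophil count was 4 without obese 1, 3 without obese 2, 1 without lean 1 and 1 without lean 2, and the NK cell count was 1 without obese 1, lean 1 or lean 2. The neutrophil count was also 3 with a robust variance and 1 with no filter on low values, and the NK cell count was 5 under median-of-ratios or quantile scaling and 1 with no filter. Library weights gave 12 for neutrophil and 7 for NK cell markers, and the erythroid count was 5 with 1 FPKM required in all 6 libraries. Of 6 plasma cell markers 1 was called higher, and no marker of B cells or dendritic cells was called. Still, all 10 B cell markers lay above 0, with a median of 0.46, and so did 5 of the 6 plasma cell markers (median 0.65). Of all genes, 70.8% lay above 0, with a median of 0.10. Bank1 was the only B cell marker whose groups did not overlap. B cell sums were 518 to 974 FPKM in obese and 358 to 772 FPKM in lean libraries, and lean 2 stood above obese 1 and obese 2. Plasma cell sums were 699 to 1289 FPKM in obese and 423 to 506 FPKM in lean libraries. Macrophages also express Pparg, Cd36, Fabp4 and Acsl1, and the part of these cells in the values of the 9 called genes, and in those of the members, was not tested. The 10 adipocyte markers together summed to 0.31 to 0.54 FPKM in obese and 0.07 to 0.69 FPKM in lean libraries, with Cidea and Ucp1 at 0 in all 6.

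In the promoter table of RefSeq (GRCm38.p6) 26 of the 33 members had a window. The nuclear receptor core AGGTCA was found on either strand in 4 of them, Acadm, Acadvl, Cpt1a and Echs1, which is 15.4%, beside 16.3% of all 32851 windows. The DR1 form, this core repeated with 1 base between, was in none, beside 0.0396% of all, and TCAAGGTCA, the estrogen-related receptor site, which contains that core, was in none, beside 0.423%. The NRF1 core GCGCATGC was in 4, Acadm, Etfa, Etfdh and Ppara, which is 15.4%, beside 2.71% of all, and CCAAT was in 12, or 46.2%, beside 37.4%. Member windows were also richer in G and C, with a median of 61.0% beside 52.7% over all windows, and the part of base composition in the motif counts was not tested. These are counts of letters in a short window and show neither a bound site nor its absence.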

How the data were processed

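Splenic CD4+ T cell RNA was read by Illumina HiSeq sequencing, per the labels' protocols. The authors deposited FPKM values in a table for each library. The submitters' processing notes name Bowtie, RSEM and the builds mm10 and GRCm38, with no versions. The annotation and the strandedness of counting were not given in the sources used here. FPKM values were searched for whole-read steps; the best step score was 0.200 to 0.270 of a possible 1, so depth is unknown, and precision is given by the spread between libraries alone.

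Values were taken as log2(FPKM + 1), without further scaling. The filter asked for 1 FPKM or more in 3 or more libraries. The group was the only term of a linear model fitted with limma 3.58.1 under R 4.3.3, whose eBayes step used an intensity trend. Tests were 2-sided, p-values were Benjamini-Hochberg adjusted over all 10788 genes, and genes under 0.05 were called. The fit was tested on simulated data. Members are described by their counts and median beside those of all genes, and no list was tested as a set. Coordinates and promoter windows came from RefSeq (GRCm38.p6) and exon overlaps from GENCODE M21. Of the members, 7 share exon bases with another protein-coding gene. Promoters of Hsd17b4, Acot13, Decr1, Acad9, Acat1, Acaa2 and Cpt1b were not analysed here. Some genes of the other lists are not reported here, and counts leave them out.

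Named in full were called members, the 4 uncalled members of smallest p with non-overlapping groups, and Cpt1a, Ppara, Ppard and Pdk4. Of each other list, up to 4 called genes of smallest adjusted p, or 2 of smallest p where none was called, were named, and a few more were chosen after their values were seen. The members, the lists and the rule were chosen with earlier results of these data known. Alternatives were other pseudocounts (0.1 and 0.5), filters, scalings (TPM, median-of-ratios, quantile, and totals without erythroid and immunoglobulin genes), variance models, library weights, a replicate block and each library left out in turn.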

Additional observations from a re-analysis of the deposited data

How the results depend on the processing

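Of 10788 genes, 678 were called. The count was 368 with no filter on low values, 434 under quantile normalization, 3116 with library weights, and 318 to 707 with 1 library left out. Members called higher in obese, 0 in the analysis as reported, numbered 2 when erythroid and immunoglobulin genes were left out of the total, 4 with library weights (Cpt1a, Acadl, Etfdh and Crot) and 0 to 2 with 1 library left out. Members called lower numbered 2 with library weights (Hsd17b10 and Acaa1a) and 0 to 1 with 1 library left out. The other alternatives called no member. The median difference of the members, 0.13, was 0.20 under TPM scaling, 0.0192 under median-of-ratios, 0.0264 under quantile normalization, 0.24 when erythroid and immunoglobulin genes were left out of the total, 0.0689 with library weights and 0.0914 to 0.169 with 1 library left out.

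Under median-of-ratios scaling the difference went below 0 for Cpt2 (−0.0208), Slc25a20 (−0.0860), Acadvl (−0.0197), Acads (−0.0212), Hadhb (−0.0388), Echs1 (−0.0155), Acaa2 (−0.0656), Eci1 (−0.0375), Ppard (−0.0463), Acot13 (−0.0971), Oxct1 (−0.0594) and Pdk3 (−0.0172). Quantile normalization gave values below 0 for Cpt2 (−0.118), Slc25a20 (−0.0847), Acads (−0.00717), Acadsb (−0.0410), Eci1 (−0.00498), Decr2 (−0.0688), Ehhadh (−0.0765), Ppard (−0.0918), Acot13 (−0.0615), Oxct1 (−0.0470) and Pdk3 (−0.0258). Library weights did so for Acaa2 (−0.0215) and Acot13 (−0.0474), and leaving erythroid and immunoglobulin genes out of the total took Hadh to 0.0115. With 1 library left out, Slc25a20 ran from −0.00117 to 0.0598, Acadsb from −0.0242 to 0.316, Echs1 from −0.0214 to 0.190, Acaa2 from −0.100 to 0.140, Acot13 from −0.0452 to 0.0965 and Oxct1 from −0.0348 to 0.159. None of these genes was called, and the cause was not tested.

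Other genes of fatty acid metabolism called higher, 9 as reported, numbered 5 with 1 FPKM required in all 6 libraries, 4 under quantile normalization, 26 with library weights, 12 when erythroid and immunoglobulin genes were left out of the total and 3 to 7 with 1 library left out. The count was 7 with no filter on low values, under median-of-ratios scaling or with no intensity trend. It was 10 under TPM scaling or with a replicate block. Those called lower, 0 as reported, numbered 1 under median-of-ratios scaling (Bdh1) and 1 with library weights. These counts were added after seeing the data.

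A replicate block called 1015 genes and no member. The labels do not say that equal numbers mark pairs, so they were not taken as pairs. Deviations of same-numbered libraries correlated at 0.03, 0.06 and 0.19, and those of differently numbered libraries at −0.17 to 0.16. Depth is unknown, and 3 libraries a group limited what could be called.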
